A study of Mus musculus with 5 samples.

Results

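The miR-17-92 cluster was followed in mouse CD4+CD25- T cells by the 6 probes of the array that carry its microRNAs, 2org-17-5p, 2org-17-3p, 1org-18, 2org-19a, 1org-20 and 1org-92, out of 171 microRNA probes in the deposited table. The members were chosen by probe name. CD4+CD25- T cells are helper T cells without the CD25+ fraction, which holds most regulatory T cells. Each of the 5 arrays had 2 channels, with total RNA of activated cells in 1 channel and of the same kind of cells without activation, called naive in the series title, in the other. Cells activated overnight were on 1 array (activated RNA in Cy5), and cells activated for 3 days and for 10 days were on 2 arrays each, 1 with the activated RNA in Cy5 and 1 with it in Cy3. All groups are CD4+CD25- T cells of Mus musculus. The sources used here do not give the strain, age, stimulus or culture, nor whether the arrays of a dye pair carried separate RNA extracts or whether all arrays shared a single naive RNA. A value is a log2 ratio of activated over naive RNA, so that 1 is a 2-fold difference. In bulk RNA a change in the makeup of the cells and a change of RNA per cell cannot be told apart.

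MicroRNAs are short RNAs cut from hairpins of a longer transcript, and either arm of a hairpin can give a mature microRNA that guides Argonaute proteins to messenger RNAs through its seed, bases 2 to 8. The miR-17-92 transcript is a polycistron, a single RNA with several hairpins, whose promoter is known to be driven by MYC and E2F factors. In lymphocytes the cluster is known for promoting growth and survival, with Bcl2l11 (Bim) among its targets.

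The 6 hairpins of the cluster lie within 836 bases of mouse chromosome 14 on the plus strand (GRCm38.p6, RefSeq), in the order Mir17 (chr14:115043671-115043754), Mir18 (chr14:115043851-115043946), Mir19a (chr14:115044000-115044081), Mir20a (chr14:115044157-115044263), Mir19b-1 (chr14:115044305-115044391) and Mir92-1 (chr14:115044427-115044506). Member probes carry the names of 5 of these hairpins, and no member stands for Mir19b-1. RefSeq places the noncoding host gene Mir17hg at chr14:115044390-115046728, so that Mir92-1 lies inside the annotated gene, the last 2 bases of Mir19b-1 overlap it and the other hairpins lie upstream of its annotated start. The platform annotation names a gene for 3 of the 6 members (1org-18, 2org-19a and 1org-20), and the rest were matched to RefSeq by the number and arm in the probe name. The sequences of the probes themselves were not used here. The mature sequences below are from RefSeq and are shown because the seed (capitals) sorts the members into groups with shared predicted targets:

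miR-17-5p (2org-17-5p): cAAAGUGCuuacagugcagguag

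miR-20a-5p (1org-20): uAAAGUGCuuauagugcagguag

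miR-18a-5p (1org-18): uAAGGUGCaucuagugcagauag

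miR-19a-3p (2org-19a): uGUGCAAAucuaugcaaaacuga

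miR-92a-3p (1org-92): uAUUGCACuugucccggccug

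miR-17-3p (2org-17-3p): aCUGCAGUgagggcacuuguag

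MiR-17-5p and miR-20a-5p share their seed and differ at 2 of 23 bases. MiR-18a-5p differs from miR-20a-5p at 4 of 23 bases and from miR-17-5p at 6 of 23, and has a seed of its own. The mature miR-92a-3p is encoded in the same letters by 2 mouse genes, Mir92-1 and Mir92-2, the latter on the X chromosome, so that 1org-92 cannot tell them apart.

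Directions here take Cy5 as the numerator of the deposited ratios, which is the likely reading and is not stated. If Cy3 was the numerator, every sign is turned. The arrays had not been centred: the median of all 171 microRNA probes was -1.75 overnight, 0.20 and 1.42 on the day 3 arrays (Cy5, then Cy3) and -0.51 and -0.38 on the day 10 arrays. Each value is therefore given as deposited and, where it matters, after taking off the median of its array ("centred"). Ranks among the 171 probes (1 is the highest ratio) and differences between members on a single array do not depend on this offset. Probes for lymphocyte microRNAs (8 probes for miR-142, miR-150, miR-155 and miR-181) ranged from -5.24 to 4.88 at day 3. Probes of 6 other marker lists (myeloid, erythroid, neural, muscle, liver and epithelial) had list medians from -2.23 to 0.87 overnight, from -0.24 to 1.06 at day 3 and from -1.44 to -0.66 at day 10, the epithelial list being highest overnight. Ratios to naive cells give changes and not levels, so the cell type could not be checked by its markers.

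MiR-17-5p, of the seed group known to target cell-cycle inhibitors such as Cdkn1a, was highest after overnight activation. Probe 2org-17-5p stood at 2.15 overnight (a 4.45-fold ratio), at 0.08 and 1.61 on the day 3 arrays and at 0.81 and 0.51 on the day 10 arrays. All 5 values were above 0. Relative to the array medians the overnight value stood highest and the day 3 values nearest to 0: centred, it was at 3.90 overnight, at -0.12 and 0.19 on the day 3 arrays and at 1.32 and 0.89 on the day 10 arrays. It ranked number 3 of 171 overnight, then 93 and 70 (day 3), and 32 and 29 (day 10).

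MiR-20a-5p, with the same seed, followed a similar course after centring, at 3.20 overnight and on average -0.84 at day 3 and 1.21 at day 10. As deposited the courses differed, as the day 3 and day 10 arrays overlapped for 2org-17-5p only. Probe 1org-20 stood at 1.46 overnight, at -0.002 and -0.06 at day 3 and at 1.09 and 0.43 at day 10. The overnight array was the highest and both day 3 arrays lay at 0, below both day 10 arrays, with no overlap. Its rank fell from 4 overnight to 101 and 136 at day 3 and was 23 and 34 at day 10. On the same array, 2org-17-5p exceeded 1org-20 by 0.70 overnight, by 0.09 and 1.67 at day 3, and at day 10 the difference was -0.28 and 0.08. The pair thus differed by under 2-fold on 4 arrays and by more on the Cy3 array of day 3.

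MiR-92a-3p, at the 3' end of the cluster and of a different seed group, had the lowest ranks of the members at day 3. Probe 1org-92 stood at 0.83 overnight, at -1.43 and -0.54 at day 3 and at -0.13 and -0.45 at day 10. It was above 0 overnight and below 0 on the 4 later arrays, and both day 10 values lay above both day 3 values. It ranked number 11 overnight, then 147 and 143 (day 3), and 62 and 91 (day 10). The day 3 mean was -0.98 ± 0.45 as deposited (distance of either array from the mean, n = 2 arrays), just short of 2-fold, and -1.80 ± 0.16 after centring.

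MiR-19a-3p, of the seed group known for much of the growth-promoting activity of the cluster, was above 0 on all 5 arrays. Probe 2org-19a stood at 0.08 overnight, at 0.58 and 1.44 at day 3 and at 1.08 and 1.03 at day 10. Its pair means were 2.02-fold at day 3 and 2.08-fold at day 10 (log2 1.05 ± 0.02, n = 2 arrays), and the day 3 arrays lay 0.43 to either side of theirs. Centred, it was at 1.83 overnight, at 0.20 ± 0.18 on average at day 3, and at 1.59 and 1.41 on the day 10 arrays. Ranks of 19 (overnight), 68 and 85 (day 3) and 26 and 14 (day 10) put the lowest standing among other microRNAs at day 3.

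MiR-18a-5p, whose hairpin is known to need the RNA-binding protein hnRNP A1 for processing, ran the other way as deposited. Probe 1org-18 stood at -0.62 overnight, at 3.05 and 2.06 at day 3 and at 2.26 and 1.37 at day 10. The overnight value lay below all 4 later values, and day 3 and day 10 overlapped. Its pair means were 2.56 ± 0.50 at day 3 (5.89-fold) and 1.81 ± 0.44 at day 10 (3.51-fold), the largest of the members at both times. After centring 1org-18 was above 0 on all 5 arrays, at 1.12 overnight, 1.75 ± 1.11 at day 3 and 2.26 ± 0.51 at day 10. The centred overnight value lay between those of the day 3 arrays (2.85 and 0.64). It ranked 36 overnight, 20 and 34 at day 3 and 11 on both day 10 arrays.

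MiR-17-3p, cut from the same hairpin as miR-17-5p, kept near or below the median of its array. Probe 2org-17-3p stood at -2.14 overnight, at -0.44 and 1.48 at day 3 and at -1.17 and -1.24 at day 10. The day 3 arrays had opposite signs and the other 3 were below 0. Centred, the values were -0.39, -0.64, 0.06, -0.65 and -0.86 in the same order, and it ranked 117 overnight, at best 82 at day 3 and at best 127 at day 10. Whether the probe was above background is unknown.

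**Figure D1:**
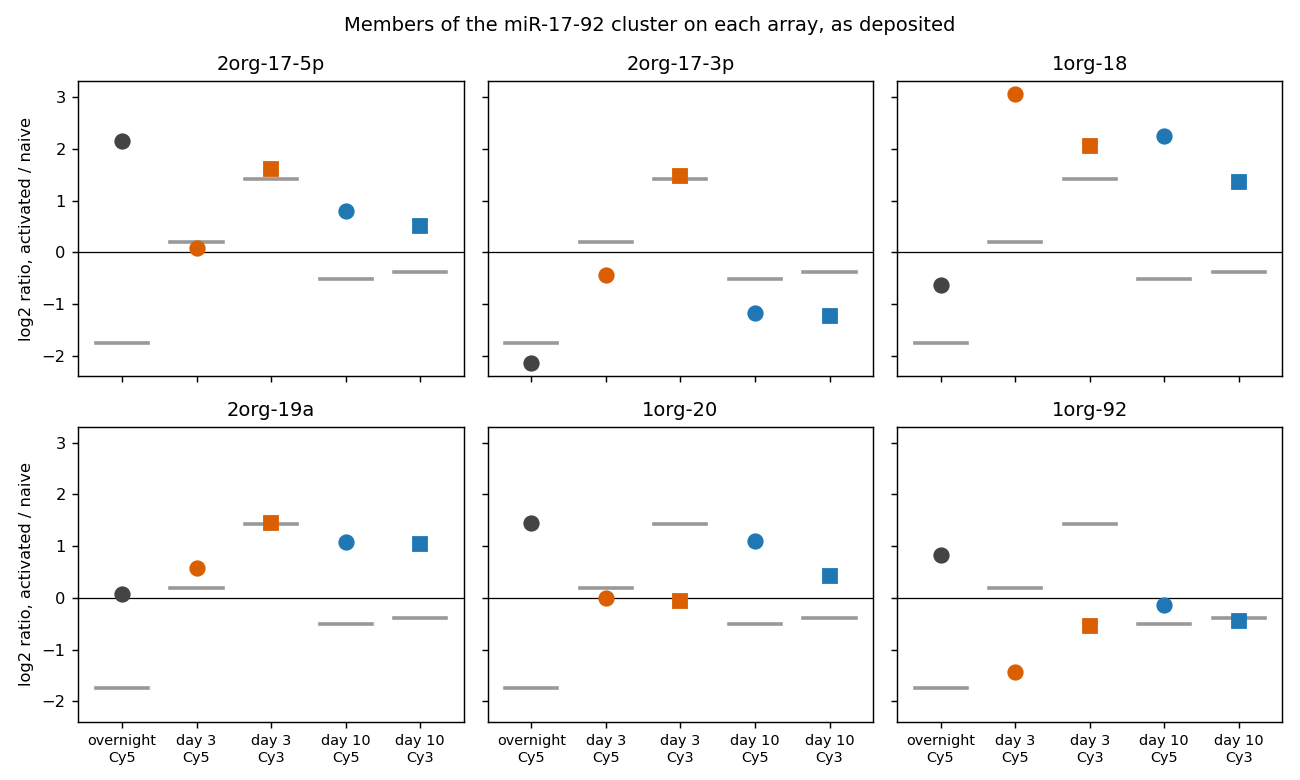
Log2 ratio of activated over naive RNA (vertical axis) of each member on each of the 5 arrays (horizontal axis, with the dye of the activated RNA), as deposited; circles are arrays with activated RNA in Cy5, squares in Cy3, and grey bars the median of all microRNA probes on that array. Probe 2org-17-5p has its highest value overnight (2.15), 1org-18 has its own lowest value there (-0.62), and 2org-17-3p lies within 0.86 of the grey bar on every array.

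**Figure D2:**
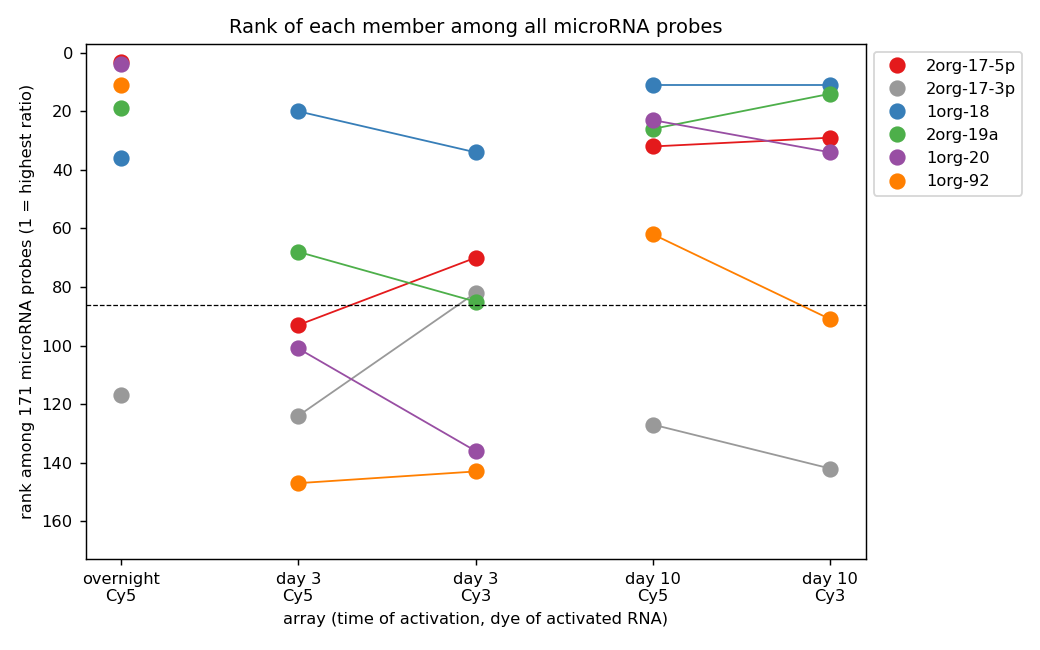
Rank of each member among the 171 microRNA probes on each array (vertical axis, 1 at the top; horizontal axis, array and dye of the activated RNA); lines join the arrays of a dye pair and the dashed line marks the middle rank. Overnight, 5 of the 6 members rank at 36 or higher, at day 3 only 1org-18 does, and at day 10 the same 4 members do on both arrays.

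Read with the 2-fold rule, 2 members were higher overnight (2org-17-5p and 1org-20) and 1 lower (2org-17-3p), while 4.09% of all probes were higher and 73.1% lower. The rule asks for a mean log2 ratio at least 1 from 0 with the same sign on both arrays of a pair, or on the single overnight array. At day 3, 2 members were higher (1org-18 and 2org-19a) and none lower, against 38% and 12.9% of all probes. At day 10, 2 members were higher (1org-18 and 2org-19a) and 1 lower (2org-17-3p), against 9.94% and 17%. The share of members higher was near the background at day 3 and above it overnight and at day 10. Without the day 3 array with Cy3 activated RNA only 1org-18 passed as higher at day 3, 2org-19a being at 0.58 on the array left. Probe 1org-92 (-1.43) then passed as lower. Without the Cy5 array 4 members passed as higher, but the median of all probes on the array left was 1.42, itself above 1. The share of all probes was not computed with an array left out. The member median was 0.46 overnight, 0.68 at day 3 and 0.71 at day 10, and that of all probes -1.75, 0.83 and -0.56.

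After centring the members' counts were largest overnight. Then 5 of 6 members were higher overnight and none lower, against 21.6% and 4.09% of all probes, with 2org-17-3p (-0.39) as the exception. At day 3, 1 was higher (1org-18) and 1 lower (1org-92), against 15.2% and 19.9%. At day 10, 4 were higher (2org-17-5p, 1org-18, 2org-19a and 1org-20) and none lower, against 14.6% and 4.09%. The centred member medians were 2.20 overnight, -0.13 at day 3 and 1.16 at day 10, beside 0.00, 0.02 and -0.12 for all probes. Centring thus ended the day 3 call of 2org-19a and all calls of 2org-17-3p as lower, and it turned the direction of none of the members called as deposited. With the dye effect averaged over both pairs taken off the overnight array, 2 members were higher and 2 lower (2org-17-3p at -1.67 and 1org-18 at -1.09). With centring as well 4 were higher and none lower. The share of all probes was not computed for these settings. The day 3 and day 10 pairs gave effects of -0.96 and 0.04 for 2org-17-3p and 0.50 and 0.44 for 1org-18. These effects also hold offsets of whole arrays.

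The fit of limma over the 5 arrays, with a term for each time and for the dye, called 2 members higher at day 3 (39.2% of all probes) and none lower (12.9%). These were 1org-18 (log2 ratio 2.56, SE 0.45, adjusted p = 2.94e-07) and 2org-19a (2.02-fold, adjusted p = 0.048). At day 10 it called 1org-18 higher (1.81, adjusted p = 0.00113; 7.02% of all probes were called higher) and 2org-17-3p lower (-1.20, adjusted p = 0.0446; 11.7%). Probe 2org-19a had an adjusted p = 0.0786 at day 10 in that limma fit. On centred values the same fit called 1org-18 higher at day 3 (18.1% of all probes) and 1org-92 lower (-1.80, adjusted p = 2.55e-05; 21.1%), and 2org-19a lost its day 3 call (adjusted p = 0.821). At day 10 it then called 4 members higher (14% of all probes), 1org-18, 2org-19a (limma adjusted p = 0.00137), 1org-20 (0.013) and 2org-17-5p (0.029). No member was called lower at day 10 (2.92% of all probes), where 2org-17-3p had a limma adjusted p = 0.168. The fit has 1 residual degree of freedom and gave every probe the same SE, pooled over all probes. Its p-values therefore do not measure the spread of a probe's own arrays. Centred, 1org-18 at day 3 had an SE of 0.38, while its arrays lay 1.11 to either side of their mean. The pooled spread is that of arrays that can be technical, so these p-values are no evidence from replicate cells.

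Between days 3 and 10, 1 member was at least 2-fold lower at day 10 with no overlap of the pairs (2org-17-3p, difference -1.72) and none higher, against 41.5% and 12.9% of all probes. The limma fit over 5 arrays called the same probe (adjusted p = 0.0176) and no member higher, against 43.9% and 8.77%. The median over all probes itself moved by -1.22 between these times. Relative to the array medians 2org-17-3p differed by -0.46, while 4 members exceeded their day 3 mean by 2-fold or more and none was lower by that much, against 28.1% and 13.5%: 1org-20 (2.05), 1org-92 (1.95), 2org-19a (1.30) and 2org-17-5p (1.07). Limma on the centred values called 1org-20 (adjusted p = 0.00111) and 1org-92 (0.00199) higher at day 10 and no member lower, against 21.6% and 7.6% of all probes. Probe 1org-18 differed by -0.75 as deposited and by 0.51 after centring, under 2-fold in both. The reference for activation, miR-155 (1org-155), differed by -4.53 as deposited and by -3.28 after centring.

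With arrays of a single dye orientation (activated RNA in Cy5, 1 array a time), in which a constant dye effect of a probe cancels, 3 members lay above 0 and 3 below as deposited, and 1 above and 5 below after centring. From overnight to day 3, 1org-18 differed by 3.68, 2org-17-3p by 1.70 and 2org-19a by 0.50, and 1org-20 by -1.46, 2org-17-5p by -2.07 and 1org-92 by -2.27. The median over all probes differed by 1.99 over the same arrays, and 16.4% of all probes were below 0 beside 3 of 6 members. From overnight to day 10 the differences were 2.88 for 1org-18, 1.00 for 2org-19a, 0.97 for 2org-17-3p, -0.37 for 1org-20, -0.96 for 1org-92 and -1.35 for 2org-17-5p. The same 3 members were above and below 0 at both later times as deposited. After centring only 1org-18 stayed above 0, by 1.73 at day 3 and 1.64 at day 10, and 2org-19a (-1.45 and -0.24) and 2org-17-3p (-0.25 and -0.26) were below, beside 49.7% and 58.5% of all probes below 0. These differences have no replicate.

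The order of the times, overnight above day 10 above day 3, was found in 2 members as deposited (1org-20 and 1org-92; 6.43% of all probes) and in 4 after centring (also 2org-17-5p and 2org-19a; 25.1%). Probe 1org-18 had overnight lowest in both by pair means, but centred its overnight value (1.12) lay above its day 3 Cy3 array (0.64).

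The members did not keep a fixed order among themselves. Of the 15 pairs of members, 4 had the same order on all 5 arrays, 8 on 4 arrays and 3 on 3 arrays. The same count over pairs of all probes was not made, so whether the members differ from other probes in this is unknown. The 4 pairs with 1 order were 2org-17-5p above 2org-17-3p, 2org-17-5p above 1org-92, 1org-20 above 1org-92 and 1org-18 above 2org-17-3p. Probe 1org-18 was below 1org-92 by 1.46 overnight and above it by 4.49 and 2.60 at day 3 and by 2.38 and 1.82 at day 10. Against 2org-17-5p, 1org-18 was lower by 2.78 overnight, with a difference of 1org-18 minus 2org-17-5p of -2.78, and higher by 2.97 and 0.45 at day 3 and by 1.45 and 0.86 at day 10. These changes of order rest on the overnight array, which had no dye swap. The dye effect averaged over both pairs was 0.47 for 1org-18, -0.31 for 2org-17-5p and -0.14 for 1org-92. The day 3 and day 10 pairs gave 0.50 and 0.44, -0.76 and 0.15, and -0.45 and 0.16, in the same order. The part of the dye in the overnight differences was not tested. The member means spanned 3.54 at day 3 and 3.01 at day 10, and the distance of an array from its pair mean was at most 0.96 at day 3 and 0.44 at day 10. The values did not follow the order of the hairpins at any time: overnight the probes of Mir17 (5p arm) and Mir20a were the highest, and at days 3 and 10 that of Mir18.

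The arms of miR-17 come from a single hairpin, shown with both mature arms in capitals (bases 14 to 36 and 51 to 72 of 84):

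Mir17 hairpin: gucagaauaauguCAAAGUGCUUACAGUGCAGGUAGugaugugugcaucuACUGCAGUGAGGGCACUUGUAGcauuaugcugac

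The 5p probe was above the 3p probe on all 5 arrays. The difference of 2org-17-5p minus 2org-17-3p was 4.29 overnight, then 0.52 and 0.13 on the day 3 arrays and 1.97 and 1.74 on the day 10 arrays. It was largest overnight and smallest at day 3, and the arrays of days 3 and 10 did not overlap. The pair means were 0.33 ± 0.20 at day 3 and 1.86 ± 0.12 at day 10 (n = 2 arrays each), and the mean over the 3 times was 2.16 ± 2.00 (SD, n = 3 times). An exact 2-sided sign-flip permutation test over the 3 times gave p = 0.25, the smallest that 3 values allow, and over the 5 arrays p = 0.0625, the smallest that 5 allow. Without the overnight array the mean was 1.09. The overnight difference was 4.13 with the dye effect of the probes taken off. As the levels of either arm are unknown, the difference says only that the measured ratios were unequal on these arrays, not which arm was more abundant. Probe 2org-17-3p kept near or below the median of its array, and whether it was above background is unknown. The part of the 3p arm in the difference was therefore not tested.

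**Figure D3:**
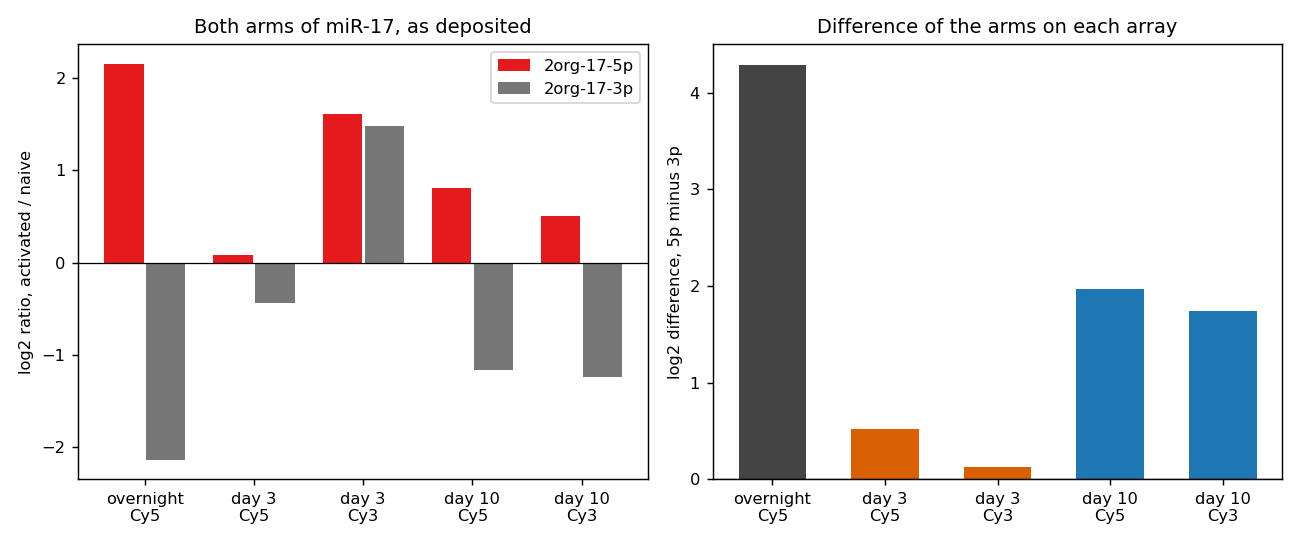
Left, log2 ratios of activated over naive RNA of both arms of miR-17 on each array, as deposited; right, the log2 difference of 5p minus 3p on each array (horizontal axes, time and dye of the activated RNA). The difference is above 0 on all 5 arrays, from 0.13 on a day 3 array to 4.29 overnight.

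The paralog clusters miR-106a-363 on the X chromosome and miR-106b-25 on chromosome 5 encode close relatives of the members, and 5 probes of the table carry their names: 1org-106a, 1org-106b, 2org-106, 1org-93 and 2org-25. Their RefSeq sequences show how near they are to the members, with the seed again in capitals:

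miR-106a-5p (1org-106a): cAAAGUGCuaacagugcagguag

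miR-106b-5p (1org-106b): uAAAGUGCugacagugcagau

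miR-93-5p (1org-93): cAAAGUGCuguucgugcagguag

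miR-25-3p (2org-25): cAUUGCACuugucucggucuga

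MiR-106a-5p differs from miR-17-5p at 1 of 23 bases, miR-106b-5p at 3 of 21 and miR-93-5p at 4 of 23, and miR-25-3p differs from miR-92a-3p at 3 of 21. Cross-hybridisation between such probes was not tested. By the 2-fold rule 1 of these 5 paralogs was higher overnight and none lower, against 4.09% and 73.1% of all probes. At day 3, 1 was higher and 1 lower, against 38% and 12.9%. None was called at day 10, against 9.94% higher and 17% lower. After centring 4 were higher overnight (21.6% of all probes), 3 were lower at day 3 (19.9%) and 2 were higher at day 10 (14.6%). None went in the opposite direction at these times (4.09%, 15.2% and 4.09%).

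In the seed group of miR-17-5p, 1org-106a stood at 0.73 overnight, at -0.09 and -0.03 on the day 3 arrays and at 0.00 and -0.29 on the day 10 arrays. Probe 1org-106b stood at -0.97, -0.66, -0.73, 0.60 and 0.51 in the same order, and its day 10 values lay above its day 3 values without overlap. Probe 1org-93 was below 0 on all 5 arrays, from -0.89 to -0.09. Centred, all 5 matched probes of this seed, members included, had their lowest time at day 3 and 4 their highest overnight, 1org-106b being highest at day 10 (1.00 beside 0.77 overnight). Outside this seed 2org-19a (0.20) and 1org-7d (-1.46) were also lowest at day 3. So were 2org-320 (-0.41), 1org-103 (0.52), 1org-195 (-0.12), 2org-107 (0.55), 1org-23a (1.77) and 1org-24 (1.06). Like 1org-7d, these are named below for a course near that of the members. Probes 1org-18, 2org-17-3p, 2org-217 and 1org-155 were not lowest at day 3. The share of all probes lowest at day 3 was not computed. Probe 2org-106, whose name gives no letter, stood at 2.75 overnight, second of 171, at 1.24 and 1.14 at day 3 and at 0.95 and 0.59 at day 10. It differed from 1org-106a by more than 2-fold at overnight and day 3, and it was matched to no single mature sequence.

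In the seed group of miR-92a, 2org-25 stood at -0.22 overnight, at -1.89 and -1.39 at day 3 and at 0.34 and -0.56 at day 10. Both 1org-92 and 2org-25 had their lowest values at day 3, at -0.98 and -1.64 on average, and the limma fit over 5 arrays called 2org-25 lower at day 3 (adjusted p = 0.00109) and higher at day 10 than at day 3 (1.53, adjusted p = 0.033), while 1org-92 had adjusted p = 0.0532 and 0.34. After centring the day 3 values were -1.80 and -2.45, and limma called both probes lower at day 3 (adjusted p = 2.55e-05 for 1org-92 and 9.77e-09 for 2org-25) and higher at day 10 than at day 3 (0.00199 and 6.69e-06).

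**Figure D4:**
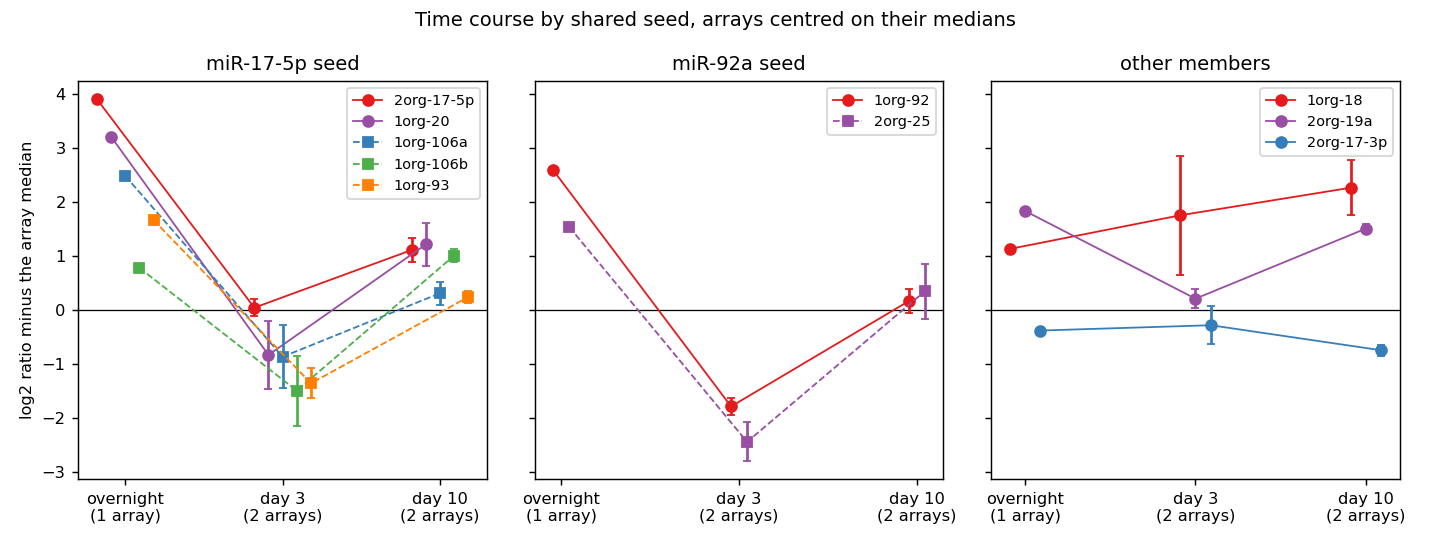
Log2 ratio minus the array median (vertical axis) at the 3 times (horizontal axis) for probes that share the seed of miR-17-5p, the seed of miR-92a, and for the other members; solid lines are members, dashed lines paralogs, and bars reach from 1 array of a pair to the other. Every probe of the first 2 panels is lowest at day 3, and so is 2org-19a in the third (0.20). Probe 2org-17-3p is lowest at day 10 (-0.75), and 1org-18 goes from 1.12 overnight to 2.26 at day 10.

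The probes with the course most like a member, by the root mean square difference of the 5 centred values, lay outside the cluster for all 6 members. As members are few among all probes, this by itself says little. Among the other 170 probes, the nearest to 2org-17-5p was 2org-106 (0.62) and the next 1org-20 (0.82), and the nearest to 1org-20 was 1org-106a (0.67). The nearest to 1org-92 was the let-7d probe 1org-7d (0.44), to 1org-18 the miR-23a probe 1org-23a (0.54), to 2org-19a probe 1org-24 (0.55), and to 2org-17-3p probe 2org-217 (0.23), which carries the number of miR-217, a microRNA known from pancreas. The first other member came at rank 4 for 1org-20 (2org-17-5p) and at rank 9 for 1org-92 (1org-20). No other member came before rank 13 for 2org-19a, rank 14 for 1org-18 or rank 115 for 2org-17-3p. The 4 probes outside the cluster nearest to the median of the members were 2org-320 (0.51), 1org-103 (0.60), 1org-195 (0.69) and 2org-107 (0.75).

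Taken over the 3 times as replicates, limma called 0 of 6 members and 0% of all probes in either direction, and at an unadjusted threshold of 0.05 no member, 3 other probes higher and 8 lower. On centred values limma also called none, and at the unadjusted threshold 10 probes were higher, 1 of them a member (1org-18), and 1 was lower. The member means over the times ran from -0.94 for 2org-17-3p to 1.25 for 1org-18, each with a pooled SE of 0.93 (n = 3 times), and the adjusted p lay between 0.852 and 0.932. Counting each of the 5 arrays as a replicate also gave 0 called members in limma (smallest adjusted p = 0.155).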

How the data were processed

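Activated and naive mouse CD4+CD25- T cells were compared on 5 arrays of 2 channels. The deposited table gives 1 log ratio per probe and array for 171 microRNA probes and 7 other small RNA probes, which were left out, with 0 missing values. The values were read as log2 ratios deposited by the authors; the log base, numerator, scanner and normalization are not stated in the labels. Ratios of the 2 arrays with activated RNA in Cy3 (channel 1) were multiplied by -1. Deposited values correlated at r = -0.66 and -0.43 within the dye pairs of days 3 and 10. Among the arrays with activated RNA in Cy5 r was 0.27 to 0.47, and between the Cy3 arrays 0.46. Between days 3 and 10 with unlike dyes r was -0.18 and -0.08. The overnight array had r of 0.09 and 0.15 with the deposited Cy3 arrays of days 3 and 10, which turn below 0 after multiplication. The part of the dye in this was not tested. Depth has no meaning here, and the number of arrays limits the precision.

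A pair was averaged (n = 2 arrays; ± is the distance of either array from the mean, which holds the dye effect and is no standard error). Counts used a 2-fold rule. Limma 3.58.1 in R 4.3.3 was fitted on all 171 probes with Benjamini-Hochberg adjustment (threshold 0.05, 2-sided), over 3 times (main) and over 5 arrays with a dye term, and was tested on simulated data. The dye effect is the mean of the deposited values of a pair. All members and all paralogs, 1org-155, the 4 probes nearest to the member median and the nearest of each member were named by rule. Members and lists were chosen with earlier results of these data known. Alternatives were centring, equal spread, a 1.5-fold rule and leaving out arrays. The control, naive RNA, is within each ratio, and its own spread is left out of the test over times.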

Additional observations from a re-analysis of the deposited data

Results flagged for a closer look

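The results given here were flagged because arrays of different times had opposite signs or a difference between times passed a test. The share of all probes that such a flag would mark was not computed. On the Cy5 arrays, as deposited, 83.6% of all probes were higher at day 3 than overnight and 16.4% lower. The shares at day 10 against overnight were the same. Probe 1org-18 was at -0.62 overnight and at 2.56 (day 3) and 1.81 (day 10) later, with every array of those times above 0. Probe 1org-92 was at 0.83 overnight and at -0.98 (day 3) and -0.29 (day 10) later, with all 4 later arrays below 0. Probe 1org-20 was at 1.46 overnight and 0.76 at day 10 but at -0.03 at day 3, where both arrays were below 0 by 0.06 or less. The differences from overnight were not tested, as the overnight value is a single array, and for 1org-20 limma over 5 arrays gave an adjusted p = 0.273 between days 10 and 3 (0.00111 after centring). Probe 2org-17-3p was lower at day 10 than at day 3 in the limma fit over 5 arrays (adjusted p = 0.0176), as were 43.9% of all probes. After centring its limma adjusted p was 0.562. Offsets of whole arrays move with all of these, with array medians of -1.75 overnight, 0.20 and 1.42 on the day 3 arrays and -0.51 and -0.38 on the day 10 arrays, and their part was not tested. After centring 1org-18 no longer had opposite signs (1.12 overnight), while 1org-20 (3.20 overnight, -0.84 at day 3) still did, as did 1org-92 between overnight (2.58) and day 3 (-1.80).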

How the results depend on the processing

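Centring the arrays, alone or with the spread of the arrays made equal, changed many counts. Members higher became 5 overnight, 1 at day 3, 4 at day 10 and 4 at day 10 against day 3 (5 with equal spread), and members lower 0 overnight, 1 at day 3, 0 at day 10 and 0 between the days. Paralogs higher became 4 overnight, 0 at day 3, 2 at day 10 and 4 between the days (5 with equal spread), and paralogs lower at day 3 became 3. The same-dye member medians went from -0.48 to -2.43 (day 3 minus overnight), from 0.30 to -0.93 (day 10 minus overnight, a turned sign) and from 0.61 to 1.32 (day 10 minus day 3). Overnight, 2 members were lower with the dye effect off, and 4 higher and 0 lower with centring too. A 1.5-fold rule gave 2 lower overnight, 1 lower at day 3, 4 higher at day 10 and 2 higher between the days. The limma fit with the dye as replicate block gave 1 higher at day 10. Leaving out 1 array gave 1 to 4 higher and 0 to 1 lower at day 3, 2 to 3 higher and 1 lower at day 10, and 0 to 1 higher and 1 to 2 lower between the days. The count of 1 higher at day 3 came without the Cy3 array, where 2org-19a was at 0.58. The 4 came without the Cy5 array, where the median of all probes was 1.42. The arm difference ranged from 1.09 to 2.22 with 1 array left out and was 2.64 with equal spread. No member passed limma over the times, or over the 5 arrays as replicates, under any of these settings. The smallest limma adjusted p of the members in a setting ran from 0.155 (5 arrays as replicates) to 0.953. No value called as deposited changed sign. Values of 1org-18 not called as deposited passed the 2-fold rule in both directions: overnight it was at -1.09 with the dye effect off and at 1.12 after centring (1.44 with equal spread), and day 10 minus day 3 was -1.24 without the day 3 Cy3 array and 1.25 with equal spread. Replicate numbers of days 3 and 10 follow the dye orientation, used above as the block, and the labels tie them to no shared RNA; signal over background is unknown.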
